A study of Mus musculus with 37 samples.

Results

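The endoplasmic reticulum (ER) stress and integrated stress response genes examined here were Hspa5, Ddit3, Atf3, Atf4, Xbp1, Herpud1, Dnajb9, Trib3, Creb3l3 and Asns, 10 of the 21450 gene symbols measured in livers of mice given HFPO-DA. HFPO-DA is a short-chain perfluoroalkyl ether acid, given as its ammonium salt, that is used as a processing aid in making fluoropolymers. The genes were chosen by name, and every probe named with one of these symbols and a probe number was taken. This gave 19 of 30146 probes, of which 17 passed the filter on low counts, and each of the 10 genes kept at least 1 probe. The probes Xbp1 30269, with 24 counts over all mice, and Trib3 75897, with 91, did not pass and were not tested.

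Adult CD1 mice, of the outbred stock Crl:CD1(ICR), were dosed by oral gavage once a day with HFPO-DA in deionized water, at 5, 0.5 or 0.1 mg/kg, and the controls received the water alone. The males were about 6 weeks old at the start and were given 84 to 85 doses, over 70 days before mating and a mating period of 14 days. The females were about 11 weeks old and were given 53 to 65 doses, from 14 days before mating to day 20 or 21 of lactation. Sex therefore cannot be told apart from age, number of doses, pregnancy and lactation. Liver sections fixed in formalin and embedded in paraffin were scraped from slides and assayed by TempO-Seq, in which pairs of probes are ligated on their target transcript, amplified and counted. The counts of 5, 5, 5 and 4 males and of 5, 5, 4 and 4 females were analysed, in order of dose. Total counts ranged from 2101495 to 10548222 in males and from 7952605 to 13878254 in females, and 2 males, one at 0.5 and one at 5 mg/kg, had fewer than 3000000.

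Levels are given as CPM, the count of a probe scaled to a common total after TMM normalisation. Probes differ in how well they bind and ligate, so a level is compared between mice for the same probe and not between genes. The 9 hepatocyte markers, among them albumin and Apoa1, summed to between 20700 and 27100 CPM in males at 5 mg/kg and to between 34500 and 54600 CPM in male controls, and these ranges did not overlap. In females the sums were 30100 to 34800 CPM at 5 mg/kg and 29300 to 42700 CPM in controls. Markers of Kupffer cells, stellate cells, endothelial cells, cholangiocytes and blood cells summed to less than 1000 CPM per list in the control and 5 mg/kg groups, with Epcam and Cftr of the cholangiocyte list at 0 in all male controls. In whole sections, fewer cells of a type and less RNA per cell cannot be told apart, and the part of cell makeup in the results was not tested.

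The unfolded protein response senses unfolded protein in the ER through the membrane proteins IRE1, PERK and ATF6. IRE1 splices the mRNA of Xbp1, ATF6 is cut to release a transcription factor, and both raise chaperones such as Hspa5 and factors of ER-associated degradation such as Herpud1 and Dnajb9. PERK and related kinases phosphorylate the initiation factor eIF2α, which slows translation in general and favours that of Atf4, whose product drives Asns, Trib3, Atf3 and Ddit3 in what is called the integrated stress response. Creb3l3 encodes CREBH, a liver transcription factor held in the ER membrane that is known for its part in lipid and acute phase gene expression. A probe count reads the amount of mRNA and not the translation of Atf4. Where the Xbp1 probes lie relative to the splice site is not given in the sources used here, so no value below is read as splicing.

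Elements through which the response is known to act were searched in the 250 bases before the RefSeq start, and Hspa5, Herpud1, Asns and Atf3 held at least 1 of them. All 10 members had a promoter in the RefSeq set (GRCm38.p6), 11 promoters in all. The ER stress response element, CCAAT and CCACG with 9 bases between them, was found on either strand in 0.113% of 32851 promoters and, among members, in Hspa5. The second form of the element, ATTGG and CCACG with 1 base between them, was in 0.0304% of promoters and, among members, in Herpud1. The core of the site bound by ATF4 with C/EBP partners, TGATG and AA with 1 base between them, was in 3.45% of promoters and in Asns, Atf3 and Herpud1. The element of peroxisome proliferator-activated receptors, AGGTCA repeated with 1 base between the copies, was in 0.0335% of promoters and in no member. The Herpud1 promoter is shown whole because Herpud1 had the largest log2 fold change among the member probes that passed a test of dose, and the stretches of Hspa5, Asns and Atf3 show the matched elements for comparison. Each is written 5′ to 3′ on the strand of the gene, and capitals mark the fixed letters of the motifs, those of the ATF4 core appearing as TT and CATCA where the match is on the other strand.
Herpud1, chr8:94386179-94386428, plus strand: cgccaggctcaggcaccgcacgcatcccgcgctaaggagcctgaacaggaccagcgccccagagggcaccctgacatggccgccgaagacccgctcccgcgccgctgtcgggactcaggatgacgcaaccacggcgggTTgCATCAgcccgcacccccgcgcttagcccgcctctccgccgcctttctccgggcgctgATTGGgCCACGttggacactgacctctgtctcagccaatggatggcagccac
Hspa5, chr2:34772019-34772048, plus strand: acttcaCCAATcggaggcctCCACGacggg
Asns, chr6:7693214-7693243, minus strand: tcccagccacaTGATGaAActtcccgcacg
Atf3, chr1:191183425-191183454, minus strand: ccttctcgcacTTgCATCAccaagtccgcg
A match is a description of these letters and not of binding. In Herpud1 the ER stress element lies 52 to 42 bases before the start and the ATF4 core 112 to 105 bases before it. In Hspa5 the element lies 65 to 47 bases before the RefSeq start, which itself lies inside the gene as GENCODE gives it. The printed stretch is thus upstream by RefSeq and within the gene by GENCODE. The same holds for the printed stretches of Asns and Atf3, whereas the Herpud1 promoter ends before the gene by GENCODE.

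At 5 mg/kg, Herpud1 fell in males and 1 of the 2 Creb3l3 probes rose in both sexes, and no other member probe passed the test. In males 1 of 17 member probes was higher and 1 lower than in controls at an adjusted p under 0.10 (the quasi-likelihood test of edgeR, adjusted over 18570 probes by Benjamini-Hochberg, hereafter the edgeR adjusted p). That is 11.8% of the member probes, beside 12.7% of all probes tested, of which 4.21% were higher and 8.49% lower. In females 1 of 17 was higher and none lower by edgeR, or 5.88%, beside 4.52% of all probes, 2.26% in each direction. At an unadjusted p under 0.05 there were 2 in females, beside 12.3% of all probes. The median log2 fold change of the 17 probes was -0.25 in males and -0.05 in females, and over all probes tested it was -0.12 and -0.01. At 0.1 and 0.5 mg/kg none of the 17 probes passed in either sex by edgeR, where 0% of all probes passed at 0.1 mg/kg in either sex, and at 0.5 mg/kg 0.625% passed in males and 0.113% in females. At an unadjusted p under 0.05 there were 4 and 2 member probes in males, beside 7.14% and 10.3% of all probes at 0.1 and 0.5 mg/kg. In females there were 2 and 1, beside 2.38% and 4.33%. DESeq2 likewise called none at the 2 lower doses.

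**Figure D1:**
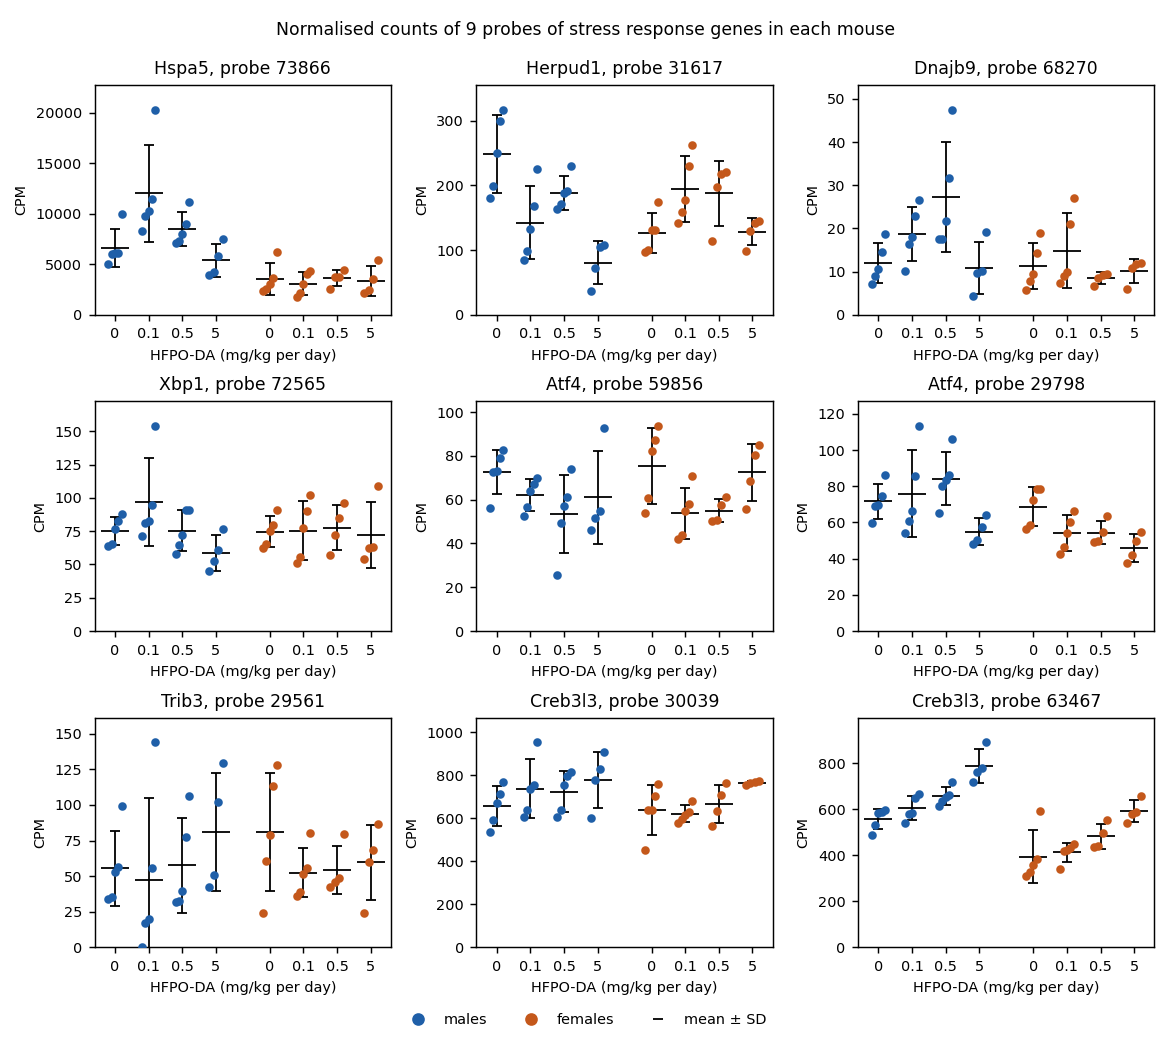
CPM (y axis) of 9 probes of the stress response genes in each mouse by dose (x axis, mg/kg per day), males in blue and females in orange, with the mean and SD of each group as a bar. Herpud1 at 5 mg/kg lies between 36.75 and 107.7 CPM in males, under all male controls, and Creb3l3 probe 63467 at 5 mg/kg lies above all male controls. The lower bar of Trib3 in males at 0.1 mg/kg is cut at 0.

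Herpud1 encodes an ER membrane protein of the ubiquitin-like family that takes part in ER-associated degradation, and its gene spans chr8:94386438-94395377 on the plus strand (GENCODE, GRCm38). Its 1 probe stood at 180.1, 199, 249.8, 299.8 and 317 CPM in the 5 male controls and at 36.75, 72.6, 105 and 108 CPM in the 4 males at 5 mg/kg. Every male at 5 mg/kg was below every male control, which 4.8% of all probes also showed in this direction. The mean fell from 249 ± 60.4 CPM (SD, n = 5) to 80.6 ± 33.3 CPM (n = 4), a log2 fold change of -1.62 (SE 0.27, 95% confidence interval -2.17 to -1.08, edgeR adjusted p = 3.74e-05). The lowest of these mice was the one with 2101495 counts. Without it and the other male under 3000000 counts, an alternative added after the data were seen, the log2 fold change was -1.42 and the call stood.

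At the lower doses Herpud1 in males did not follow the order of dose. At 0.1 mg/kg the 5 males stood at 84.85, 98.7, 133, 169 and 225 CPM, and 4 of them were below every control. The log2 fold change there was -0.81 (SE 0.244) with an unadjusted p of 0.00192 and an edgeR adjusted p of 0.624. At 0.5 mg/kg the males stood at 164, 171, 188, 191 and 231 CPM, within or just under the range of the controls, with a log2 fold change of -0.40 (edgeR adjusted p = 0.649).

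In females no fall of Herpud1 was detected. The female controls stood at 97.6, 101, 130.3, 131 and 174 CPM and the females at 5 mg/kg at 98.9, 129, 141 and 145 CPM, which overlap throughout. The log2 fold change was 0.02, with a 95% confidence interval of -0.50 to 0.54, so a fall as large as that in males lay outside the interval. At 0.1 mg/kg the females had 141, 159.6, 177, 229.9 and 263 CPM, and at 0.5 mg/kg 114, 198, 218 and 222 CPM. These 2 groups were higher than the controls by log2 fold changes of 0.61 and 0.57, with unadjusted p of 0.0155 and 0.0317 and edgeR adjusted p of 1.0 for both. The difference between the sexes in the effect of 5 mg/kg was tested as an interaction and came to -1.65 on the log2 scale (SE 0.368, 95% confidence interval -2.39 to -0.90, edgeR adjusted p = 0.024). Herpud1 was the 1 member probe of 17 that passed this test, or 5.88%, beside 0.63% of all probes. At 0.5 mg/kg the interaction of Herpud1 was -0.97 with an edgeR adjusted p of 0.728, and no member probe passed, beside 0.0108% of all probes.

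Hspa5 encodes BiP, the main Hsp70 chaperone of the ER lumen and the classic target of the ER stress response element, and lies at chr2:34771970-34777547 on the plus strand. Its 3 probes rose and fell together over the 37 mice, with Pearson r of 0.772 to 0.881 between pairs of log2 CPM values, and of 0.64 to 0.8 once the group means were removed. At 5 mg/kg no Hspa5 probe passed the test in either sex. The most counted probe, 73866, stood at 4986, 5991, 6055, 6096 and 9931 CPM in male controls and at 3947, 4217, 5796 and 7485 CPM in males at 5 mg/kg. The ranges overlap, and the log2 fold change was -0.30 (95% confidence interval -0.88 to 0.28). In females the same probe stood at 2320, 2505, 3032, 3611 and 6165 CPM in controls and at 2117, 2421, 3481 and 5429 CPM at 5 mg/kg, and the log2 fold change was -0.07 (-0.65 to 0.51). A change of more than 2-fold in either direction lay outside the interval of this probe in both sexes. The other probes, 29651 and 74605, gave -0.35 (-0.91 to 0.21) and -0.05 (-0.64 to 0.53) in males. In females they gave -0.51 (-1.07 to 0.05) and -0.48 (-1.06 to 0.11), intervals that reach just past a 2-fold fall.

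The highest levels of Hspa5 were in males at 0.1 mg/kg. Probe 73866 had 8253, 9759, 10290, 11410 and 20300 CPM there, with 3 of the 5 mice above every control. The log2 fold changes of the 3 probes against male controls were 0.86, 0.85 and 0.77, with unadjusted p between 0.00226 and 0.00721 and an edgeR adjusted p of 0.624 for each. None passed the test as fitted. Without any filter on low counts probe 73866 had an edgeR adjusted p of 0.09. The males at 0.5 mg/kg had 7064, 7268, 7977, 8930 and 11190 CPM, a log2 fold change of 0.36 (edgeR adjusted p = 0.785). The comparisons at the 3 doses share the male controls, so they are not independent of each other.

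Dnajb9 encodes ERdj4, a J-domain partner of BiP that aids degradation, and is a target of XBP1. Its better counted probe, 68270, stood at 7.005, 9.04, 10.6, 14.5 and 18.6 CPM in male controls and at 17.4, 17.6, 21.8, 31.6 and 47.5 CPM in males at 0.5 mg/kg. Of the 5 treated mice 3 were above every control, and the log2 fold change was 1.18 (95% confidence interval 0.38 to 1.97, unadjusted p = 0.00463), but the edgeR adjusted p was 0.249. The highest of these values came from the mouse at 0.5 mg/kg with 2608954 counts. Dnajb9 at 5 mg/kg gave -0.15 on the log2 scale in each sex, where the edgeR adjusted p was 0.894 (males) or 1.0 (females). The second probe, 77519, had 0 to 102 counts per mouse, and its levels bore little relation to those of the first (r = 0.0874 over 37 mice).

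Xbp1 encodes the transcription factor that IRE1 activates by splicing. Probe 72565 stood at 63.9, 65.3, 76.7, 82.7 and 87.6 CPM in male controls and at 45.0, 52.4, 60.7 and 76.9 CPM in males at 5 mg/kg, where 3 of 4 were below every control. The log2 fold change was -0.36 (95% confidence interval -0.83 to 0.12, edgeR adjusted p = 0.381). Females differed less, with 62.3 to 90.6 CPM in controls, 53.9 to 109 CPM at 5 mg/kg and a log2 fold change of -0.05 (-0.51 to 0.42). The second probe, 31868, followed the first over mice with r = 0.587 and gave -0.25 (males) and 0.06 (females) on the log2 scale.

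Atf4 encodes the transcription factor at the centre of the integrated stress response and lies at chr15:80255184-80257541. Its 2 probes had like counts, a mean of 561 and 557 per mouse, but agreed poorly over mice (r = 0.165). Once the group means were removed, r was 0.374. Probe 29798 stood at 56.5, 58.5, 72.2, 78.5 and 78.5 CPM in female controls and at 37.6, 41.9, 49.7 and 54.96 CPM in females at 5 mg/kg. Every treated female was below every control, as for 4.31% of all probes in this direction. The log2 fold change was -0.58 (SE 0.196, 95% confidence interval -0.98 to -0.19), and the edgeR adjusted p of 0.109 was just over the threshold of 0.10. It was under the threshold with a mean of at least 10 counts as the filter (0.0719), with each sex fitted apart (0.0303), by DESeq2 (0.0469) and without the 2 mice under 3000000 counts (0.0653). Probe 59856 of the same gene stood at 55.7, 68.6, 80.6 and 84.8 CPM in these females and at 53.8 to 93.7 CPM in controls, a log2 fold change of -0.06 (-0.51 to 0.39). In males at 5 mg/kg the probes gave -0.38 and -0.26, with edgeR adjusted p of 0.233 and 0.561. Without the 2 mice under 3000000 counts probe 59856 gave -0.56 and passed at 0.0881, its highest value at 5 mg/kg, 92.6 CPM, being from the male of 2101495 counts.

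Trib3 encodes a pseudokinase that ATF4 and CHOP raise and that holds back their activity. Its tested probe varied widely between mice of 1 group. The male controls stood at 33.7, 35.1, 52.9, 56.2 and 99.1 CPM, the males at 0.1 mg/kg at 0.238, 16.9, 19.6, 55.7 and 144 CPM, and the males at 5 mg/kg at 42.4, 50.7, 102 and 129 CPM. At 5 mg/kg Trib3 differed from controls by 0.56 on the log2 scale in males (95% confidence interval -0.62 to 1.73, edgeR adjusted p = 0.645) and -0.44 in females (-1.62 to 0.74, edgeR adjusted p = 0.99). The interval in males reaches past a 2-fold rise and that in females past a 2-fold fall, so changes of that size are not excluded there.

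Ddit3, Atf3 and Asns were at or near the floor of the assay. Ddit3 encodes CHOP, the factor of the pathway linked to cell death, and had at most 115 counts in a mouse, with 5 of 37 mice at 0. In males the Ddit3 counts were 8 to 72 in controls and 0, 1, 28 and 52 at 5 mg/kg. In females they were 0, 39, 41, 44 and 57 in controls and 0, 26, 45 and 115 at 5 mg/kg. On the log2 scale the differences were -0.65 (males, 95% confidence interval -2.93 to 1.63) and 0.37 (females, -1.85 to 2.60).

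Atf3, an early stress-induced factor, had at most 64 counts on probe 72119 and 37 on probe 29935. Probe 72119 had a count in 1 of 5 male controls (30), in 1 of 4 males at 5 mg/kg (26), in 3 of 5 female controls (5, 6 and 14) and in all 4 females at 5 mg/kg (8, 23, 24 and 64). Asns encodes asparagine synthetase, a standard target of ATF4. Its probe had 8, 9 and 47 counts and 0 in the other 2 male controls, and 11, 13, 0 and 0 in males at 5 mg/kg. In females Asns had 0, 0, 0, 1 and 11 counts in controls and 7, 7, 20 and 35 at 5 mg/kg, and 2 of these 4 were above every control. Neither gene passed the test at any dose by edgeR, and no fold is given at these counts.

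Creb3l3, at chr10:81084324-81098874 on the minus strand, was the member that was higher at 5 mg/kg in both sexes, by 1 of its probes. Probe 63467 stood at 489, 533, 581, 588 and 595 CPM in male controls and at 718, 761, 777 and 891 CPM in males at 5 mg/kg, and the groups did not overlap, as for 2.78% of all probes in this direction. The mean rose from 557 ± 45.3 CPM (SD, n = 5) to 787 ± 73.6 CPM (n = 4), a log2 fold change of 0.50 (SE 0.146, 95% confidence interval 0.20 to 0.79, edgeR adjusted p = 0.0244). Without replicate 4 of the males at 5 mg/kg the log2 fold change was 0.41 and the edgeR adjusted p 0.108.

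In females Creb3l3 probe 63467 stood at 308, 327, 356, 382.5 and 594 CPM in controls and at 539.5, 579.8, 589 and 656 CPM at 5 mg/kg. One control lay within the range of the treated mice. The log2 fold change was 0.59 (SE 0.146, 95% confidence interval 0.29 to 0.88, edgeR adjusted p = 0.0108), and the difference between the sexes was -0.09 (-0.51 to 0.33). At the lower doses, 0.1 and then 0.5 mg/kg, the males gave log2 fold changes of 0.11 and 0.24 and the females 0.07 and 0.29, none of which passed. The other probe, 30039, was higher at 5 mg/kg by 0.25 (males) and 0.26 (females), with edgeR adjusted p of 0.349 and 0.568, and its interval in males ran from -0.06 to 0.56. By DESeq2 it passed in males, with an adjusted p of 0.0693. The r between the probes was 0.559 over mice and 0.367 once the group means were removed, the latter close to the 0.374 of the Atf4 probes.

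**Figure D2:**
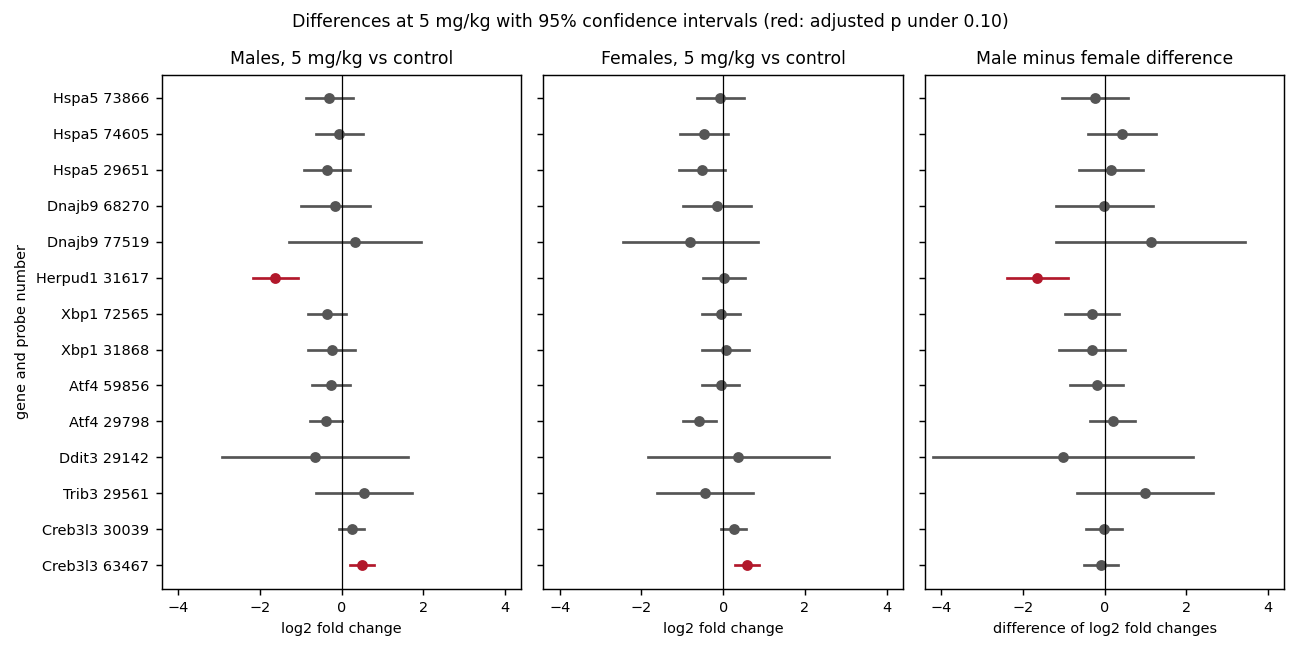
Log2 fold change (x axis) of 14 member probes (y axis) at 5 mg/kg against controls in males and in females, and the male minus female difference, each with its 95% confidence interval, in red where the edgeR adjusted p was under 0.10. Herpud1 is the lowest in males at -1.62 and near 0 in females, and Creb3l3 63467 is higher in both.

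In the controls, 3 of 17 member probes were higher in males than in females, or 17.6%, and none was lower. Of all probes 2.6% passed, and 1.24% were higher in males. Herpud1 was higher by a log2 fold change of 0.98 (SE 0.245, edgeR adjusted p = 0.0198), with all 5 males above all 5 females, as for 1.54% of all probes. Hspa5 probe 73866 was higher by 0.91 (edgeR adjusted p = 0.0804) and Creb3l3 probe 63467 by 0.50 (edgeR adjusted p = 0.0443). The other Hspa5 probes gave 0.19 and 0.32 and the other Creb3l3 probe 0.04, and none of these passed. The call of Herpud1 stood when any 1 mouse was left out, with an edgeR adjusted p of at most 0.0835. That of Hspa5 was lost when female control 1, 2, 4 or 5 or male control 3 was left out, with the edgeR adjusted p reaching 0.309 and the log2 fold change as low as 0.73, and in a robust fit. That of Creb3l3 was lost without female control 2, 4 or 5 and without a filter on low counts. These control mice are the same as in the comparisons with dose.

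The pathway around the members was read from gene lists, 1 probe per gene. Of all 13004 genes, 13.5% passed in males at 5 mg/kg, 4.64% higher and 8.87% lower, with a median log2 fold change of -0.11. In females 4.93% passed, 2.42% higher and 2.51% lower, with a median of -0.02. Of 9 tested sensors and eIF2α kinases, 1 was lower in males and none passed in females by edgeR. This was Ern1, which encodes IRE1, at 5.67 ± 4.6 CPM (SD, n = 4) against 16.8 ± 6.17 CPM (n = 5), a log2 fold change of -1.60 with an edgeR adjusted p of 0.0604. Eif2ak3, which encodes PERK, and Atf6 did not pass, with log2 fold changes of 0.09 and -0.75 in males, values given although the rule for naming genes did not choose them. Of 12 genes of eIF2α and its phosphatase 1 was lower in males, Ppp1r15a, the stress-induced subunit known as GADD34, at 2.03 against 7.57 CPM (edgeR adjusted p = 0.0944).

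Among 18 other targets of ATF4 and CHOP, 2 were higher and 3 lower in males and none passed in females by edgeR. In males that is 27.8%, beside 13.5% of all genes. The median log2 fold change of the list was 0.342 in males, with 10 of 18 genes positive, and 0.344 in females, with 11 of 18 positive. Over all genes the medians were -0.114 and -0.0213. Eif4ebp1, a brake on translation, was higher by 0.57 on the log2 scale (edgeR adjusted p = 0.0813). Bbc3, which encodes the death factor PUMA, was lower by -2.44 (edgeR adjusted p = 0.0117), at 1.58 against 9.2 CPM, and Jdp2 had no count in males at 5 mg/kg and a mean of 1.25 CPM in controls. Of 13 genes of amino acid synthesis and transport, 1 was higher and 3 lower in males (30.8%), and 2 were lower in females (15.4%, beside 4.93% of all genes). The median log2 fold change of this list was -0.169 in males and 0.202 in females. Cth and Cbs, the enzymes that turn homocysteine into cysteine, fell in both sexes, Cth by -0.88 (males) and -1.56 (females) on the log2 scale (edgeR adjusted p = 0.0196 and 4.49e-05), and Cbs by -1.05 and -1.14 (0.0208 and 0.0185). Slc38a2, an amino acid carrier, fell in males by -1.72 (edgeR adjusted p = 0.00334). Of 20 cytosolic aminoacyl-tRNA synthetases, Gars rose in both sexes, by 0.97 in males and 0.82 in females (edgeR adjusted p = 0.00274 and 0.0237), and Eprs was lower in males by -0.52 (edgeR adjusted p = 0.0703).

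No gene of the 3 lists of the ER itself passed as higher, and the shares that passed as lower are to be read beside the 8.87% of all genes lower in males and 2.51% in females. The medians of log2 fold change stand likewise beside -0.114 (males) and -0.0213 (females) for all genes. Of 27 chaperones and folding enzymes, 5 were lower in males (18.5%) and 2 in females (7.41%), and the median of the list was -0.27 and -0.13. Ppib, a prolyl isomerase, fell from 494 ± 58.9 CPM (SD, n = 5) to 269 ± 21.9 CPM (n = 4) in males and by -0.67 on the log2 scale in females (edgeR adjusted p = 3.11e-05 and 0.00214). Pdia6, a disulfide isomerase, fell by -0.87 and -0.88 (edgeR adjusted p = 0.00994 and 0.0139), and Uggt1, which senses misfolded glycoproteins, fell in males by -0.84 (edgeR adjusted p = 0.00443). Of 24 genes of ER-associated degradation, 3 were lower in males (12.5%) and 1 in females (4.17%), with list medians of -0.247 and -0.126. Edem1 led them, at -0.61 and -0.65 (edgeR adjusted p = 0.0196 and 0.0208). Of 32 genes of translocation and the early secretory path, 6 were lower in males (18.8%) and 2 in females (6.25%). The median of this list was -0.225 in males and 0.0206 in females, the latter beside -0.0213 for all genes. Spcs3, a subunit of signal peptidase, fell by -0.65 in males and -0.51 in females (edgeR adjusted p = 0.00217 and 0.0345). Ssr4, of the translocon, fell by -0.47 and -0.55 (edgeR adjusted p = 0.0409 and 0.0268).

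Of 13 genes of the CREB3 family and known targets of CREBH, 1 was higher and 5 lower in males (46.2%, beside 13.5% of all genes). In females 2 were lower (15.4%, beside 4.93% of all genes), while Creb3l3 itself was higher in both sexes by its probe 63467. The list did not fall as a whole in males, where its median log2 fold change was 0.232 and 7 of 13 genes were positive. In females the median was -0.396 and 6 of 13 were positive. Over all genes the medians were -0.114 in males and -0.0213 in females. Apoa4, an apolipoprotein that CREBH is known to drive, fell from 185 ± 37.2 CPM (SD, n = 5) to 29.8 ± 25 CPM (n = 4) in males and from 530 ± 57.8 CPM (n = 5) to 49.3 ± 14.5 CPM (n = 4) in females (edgeR adjusted p = 2.19e-05 and 3.45e-07). Apoa5, which regulates triglyceride clearance, fell by -0.74 (males) and -1.17 (females) on the log2 scale (edgeR adjusted p = 0.00845 and 4.57e-05). Creb3l2 fell in males by -1.74 (edgeR adjusted p = 0.00404) and Apcs, the acute phase protein serum amyloid P, by -1.94 (edgeR adjusted p = 0.00297). Apcs was also the 1 gene of these lists that passed at 0.5 mg/kg in males, with a log2 fold change of -1.83 (edgeR adjusted p = 0.0235), beside 0.7% of all genes.

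Cytosolic heat shock genes were taken as a stress response outside the ER. They were the list in which, in males as well as in females, each gene that passed was higher: 4 of 11 in males and 5 of 11 in females. That is 36.4% and 45.5%, beside 4.64% and 2.42% of all genes higher. Of these calls 2 in each sex were Hspd1, the mitochondrial chaperonin, and Hspe1, its partner, which are not cytosolic. Hspd1 rose by 0.74 in males and 0.60 in females (edgeR adjusted p = 0.00638 and 0.0549), and the small heat shock protein Hspb1 by 1.96 and 2.60 (edgeR adjusted p = 0.0378 and 0.0104). Between the controls 5 of 11 heat shock genes were higher in males than in females (45.5%), beside 2.85% of all genes that passed in either direction. Other lists were read because tissue handling or time of day can move them. The counts of lower genes that follow stand beside 8.87% of all genes lower in males and 2.51% in females. Of 13 immediate-early genes 2 were lower in males and 1 in females, Ier2 in both. Most of this list had a positive log2 fold change, 9 of 13 in males (median 0.358) and 8 of 13 in females (median 0.066). Of 13 genes of the circadian clock 2 were lower in males, Per1 and Ciart. Per1 stood at 0.0276 CPM against 2.79 CPM in male controls (edgeR adjusted p = 0.00406), both low levels. It was the 1 of 13 clock genes that passed the test of a difference between the sexes at 5 mg/kg (edgeR adjusted p = 0.0643). That is 7.69% of the clock list, beside 0.631% of all genes. Herpud1 passed the same test, and so did Cebpb of the ATF4 and CHOP targets and the hepatocyte markers Apoa1 and Tat, all with a negative difference. Of the 9 hepatocyte markers 5 were also lower in males and 2 in females, and of the other cell types only 2 of 10 endothelial markers passed in males, both lower. The part of these genes in the fall of Herpud1 was not tested.

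**Figure D3:**
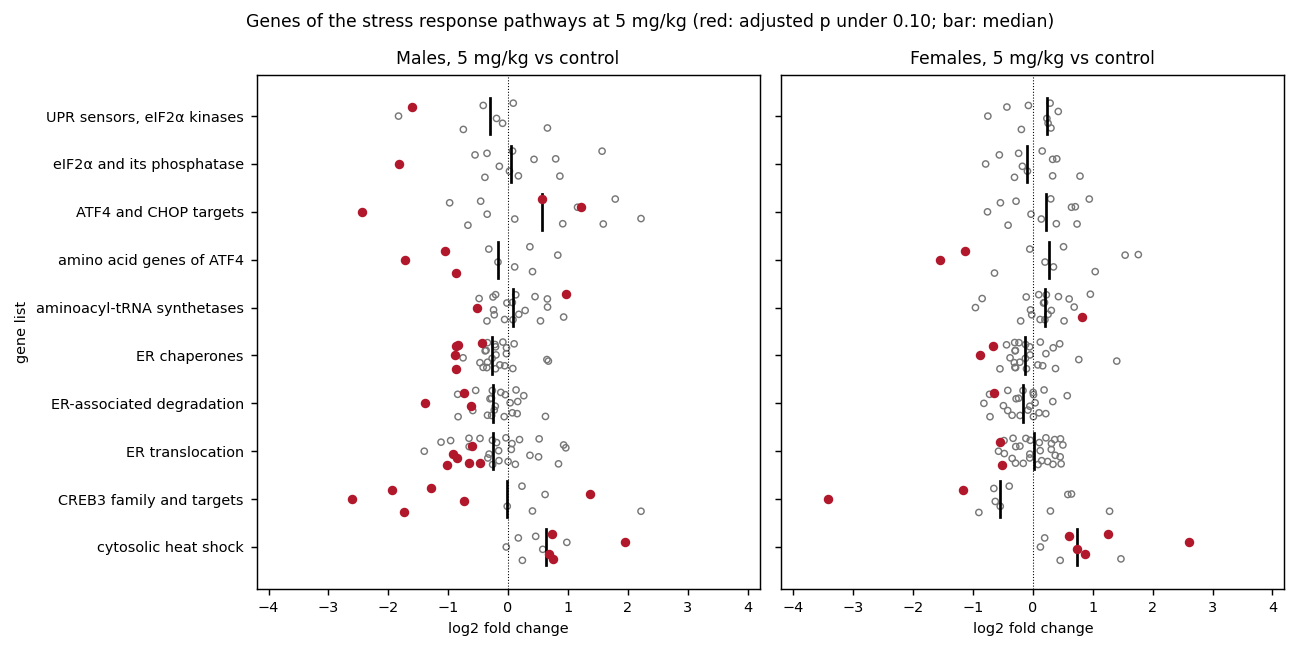
Log2 fold change at 5 mg/kg (x axis) of the genes of 10 lists (y axis), males on the left and females on the right, in red where the edgeR adjusted p was under 0.10, with a bar at the median of the genes drawn. Genes with a mean of 1 CPM or less in either group are left out (165 of 179 genes are drawn in males and 162 in females, a gene of 2 lists counting in both). Genes of the ER lists that passed lie left of 0, and heat shock genes that passed lie right of 0.

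Over the 37 mice, which differ in sex, dose and depth, the genes whose log2 CPM was most like that of Hspa5 among 7077 genes were Creld2 (r = 0.923), Manf (0.905) and Pdia4 (0.899), 3 products of the ER. Herpud1 was not among them, and its r with Hspa5 was 0.0892. The levels most like Herpud1 were those of Kcnk5 (0.815), Gfra1 (0.785) and Yod1 (0.77), and those most like Trib3 were Ephb4 and Nr1d1 (0.823 each) and Isg20l2 (0.81), Nr1d1 being a repressor of the circadian clock. For Creb3l3 they were Acaa2, a thiolase of mitochondrial β-oxidation (0.767), Mttp, which loads lipoproteins (0.745), and Atp5f1 (0.731). For Xbp1, Dnajb9, Atf4, Ddit3, Atf3 and Asns the best r was between 0.571 and 0.678, with Lman1, Tmem19, Usp28, Relch, Vps4b and Coq2. These correlations are descriptions over mice that share groups.

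**Figure D4:**
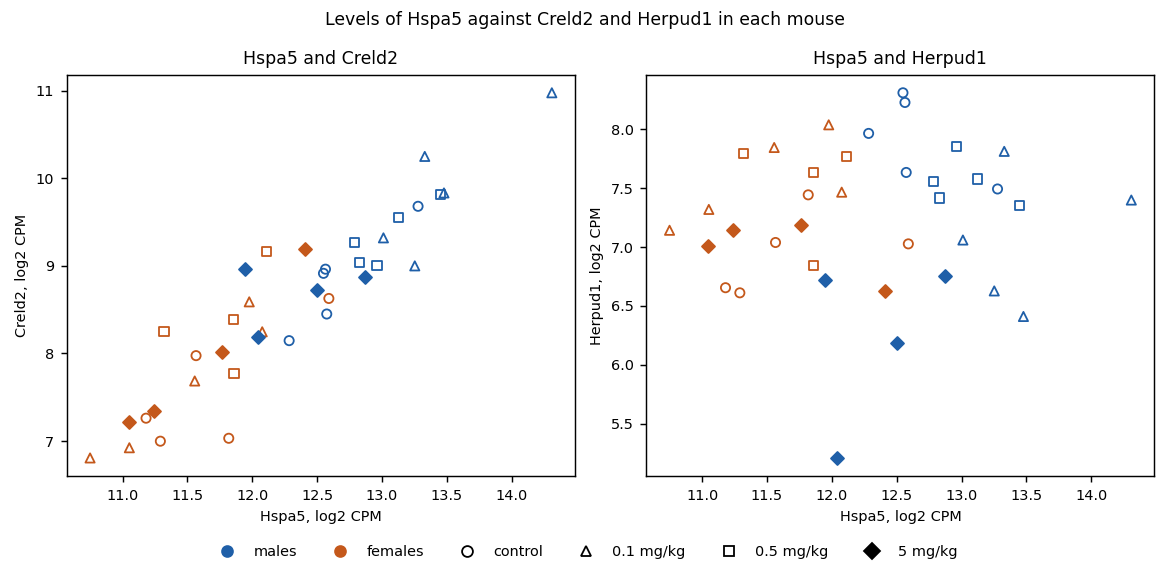
Log2 CPM of Hspa5 probe 73866 (x axis) against log2 CPM of Creld2 (left) and Herpud1 (right) on the y axis, 1 point for each of 37 mice, with colour for sex, shape for dose and filled points for 5 mg/kg. Creld2 follows Hspa5 (r = 0.923), and Herpud1 does not (r = 0.0892).

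Within groups, the levels of the members were compared in pairs. Of 45 pairs of members, with group means removed, none passed for Pearson's r after Benjamini-Hochberg adjustment over the pairs (permutation within groups, 100000 resamples, two-sided), and the median r was 0.0321. The strongest was a negative one between Atf4 and Herpud1, with r = -0.473 (permutation p = 0.00308, adjusted p = 0.139) and Spearman's rho = -0.561 (permutation p = 0.00056, adjusted p = 0.0252). It was -0.428 in males, -0.559 in females and -0.53 without the 2 mice farthest from the median. These values are those of Atf4 probe 59856. With Atf4 probe 29798, a choice added after the data were seen and outside the 45 pairs, r was -0.0235 (permutation p = 0.91) and Spearman's rho 0.0405 (permutation p = 0.831), so the relation is that of 1 probe. Hspa5 with Xbp1 gave r = 0.436 (permutation p = 0.0241, adjusted p = 0.44), and Hspa5 with Herpud1 gave r = 0.146.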

How the data were processed

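The authors sequenced TempO-Seq libraries of 40 mouse livers on a HiSeq, made reads with bcl2fastq 2.17.1.14, aligned them to the probes with Bowtie (version not given in the sources used here) and removed 3 mice more than 2 SD below the mean in depth or probes detected. The deposited values are raw counts per probe for 37 mice, not normalized. Sex and dose came from the labels, and no column was unassigned. The positions of the probes on their transcripts are not given in the sources used here.

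R 4.3.3 and edgeR 4.0.16 were used. A filter on low counts (filterByExpr, 8 groups) and TMM normalization came before one quasi-likelihood fit over 37 mice, in which each group had its mean. Contrasts were each dose against the controls of the same sex, the male minus female difference of these at 0.5 and 5 mg/kg, and male against female controls. P-values were adjusted by Benjamini-Hochberg over 18570 probes, at a threshold of 0.10. TMM assumes that most probes do not change. Confidence intervals are of 95%. Log2 CPM used a prior count of 2. Correlations used Python 3.11.15 and scipy 1.17.1. Alternatives included DESeq2 1.42.0, other filters and leaving out each mouse. The fit was tested on simulated data. Total counts per mouse ranged from 2101495 to 13878254. The precision of low probes is limited by counts, and tests take mice as replicates.

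The members, gene lists and tests were chosen with earlier results of these data known. Genes named were all members, the 3 genes most correlated with each, and up to 3 genes per list with the smallest adjusted p among those that passed. Gene positions are those of GENCODE vM21 (GRCm38) and promoters those of RefSeq.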

Additional observations from a re-analysis of the deposited data

Results flagged for a closer look

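Herpud1 differed between the sexes in its response to 5 mg/kg, by -1.645 on the log2 scale, with the test of the difference passing at an edgeR adjusted p of 0.024. Of 64 groups of 4 or 5 mice of 8 members examined, 3 held a mouse far from the others, and chance flags about 1 in 20 groups. Ddit3 was at 0 CPM in female control replicate 4, and the other 4 controls were between 3.66 and 5.34 CPM. Herpud1 was at 114 CPM in replicate 2 of the females at 0.5 mg/kg, with the others between 198 and 222 CPM. Dnajb9 was at 6.06 CPM in replicate 3 of the females at 5 mg/kg, with the others between 10.8 and 12 CPM.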

How the results depend on the processing

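The threshold of 0.05, DESeq2's size factors, a robust fit and counts thinned to the smallest total left the number of member probes called within 1.5 times in each comparison. In males at 0.1 mg/kg the count went from 0 to 1 without a filter on low counts. In females at 5 mg/kg it went from 1 to 2, by Atf4 29798, with a mean of at least 10 counts, with each sex fitted apart, with DESeq2 and without the 2 mice under 3000000 counts, the last an alternative added after the data were seen. Leaving out 1 mouse at a time gave 1 to 3 calls in males at 5 mg/kg, 1 to 2 in females at 5 mg/kg and 1 to 3 between the controls, and did not move the other counts. Of the 3 in males, 1 was Atf3 72119, called without male control 5 at an edgeR adjusted p of 0.0658. Male control 5 was the only 1 of 5 male controls with a count on this probe (30), and 1 of 4 males at 5 mg/kg had a count (26). Without that control, the 26 counts of 1 treated mouse stood against controls all at 0. Whether these few counts account for the call was not tested. The calls of Herpud1 at 5 mg/kg in males, of its interaction and between the controls, and of Creb3l3 63467 in females, held under all alternatives run.

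Signs were followed in 14 of the 17 tested member probes, those of Atf3 and Asns being left out for their many 0 counts. Of the 84 comparisons of these probes with a dose, 7 changed sign under another setting and 31 when 1 mouse was left out, and none of these had been called. The following are those at 5 mg/kg and those whose values are given at lower doses. Hspa5 74605 in males at 5 mg/kg, -0.05, was 0.042 with DESeq2's size factors or DESeq2 and 0.0651 without the 2 mice under 3000000 counts, and Dnajb9 68270 in females, -0.15, was 0.0912 in thinned counts. Leaving out 1 mouse gave, at 5 mg/kg in males, -0.302 to 0.0986 for Hspa5 74605, -0.613 to 0.0993 for Dnajb9 68270 and -0.121 to 0.728 for Dnajb9 77519. In females it gave -0.16 to 0.0468 for Atf4 59856, -0.49 to 0.787 for Ddit3, -0.313 to 0.126 for Dnajb9 68270, -0.077 to 0.161 for Herpud1, -0.413 to 0.213 for Hspa5 73866, -0.334 to 0.271 for Xbp1 31868 and -0.332 to 0.0675 for Xbp1 72565. In females at lower doses it gave -0.021 to 0.262 for Creb3l3 63467 at 0.1 mg/kg, and for Creb3l3 30039 -0.141 to 0.0312 at 0.1 and -0.0361 to 0.139 at 0.5 mg/kg. The correlation of Atf4 and Herpud1, -0.473, was -0.0235 with the other Atf4 probe. The groups hold different mice, so no paired analysis was made. The labels give no replicate numbers, and those used here count the mice of a group in the order of the deposited columns. Counts of Atf3, Asns and Ddit3 limit what could be detected in these genes.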
